A study of Mus musculus with 4 samples.

Results

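Carbonic anhydrases and bicarbonate transporters were examined in mouse aorta as a set of 8 genes, Car2, Car3, Car4, Car8, Car14, Slc4a2, Slc4a3 and Slc4a4, out of 8251 genes named singly on the array. The members were taken as every probe set whose single gene symbol was one of the 8, and 9 probe sets met this rule, 2 of them for Car4. The genes were picked with the difference between rosiglitazone and vehicle in these same arrays in view, so that difference is described for them and not tested. RNA came from pooled aortas of adult male C57BL/6J mice that received rosiglitazone, a thiazolidinedione that activates PPARγ, for 21 days at 25 mg/kg per day (arrays 1 and 2), or vehicle for 21 days (arrays 3 and 4). The labels give neither how many mice made a pool nor whether both arrays of a group shared 1 pool, so the spread between arrays may be technical. In bulk tissue, fewer cells of a type and less RNA per cell cannot be told apart.

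Carbonic anhydrases catalyse the reversible hydration of carbon dioxide to bicarbonate and a proton, and the SLC4 proteins carry bicarbonate across the plasma membrane. Cytosolic and membrane-bound anhydrases work beside these carriers, so that carbon dioxide leaves respiring cells and intracellular pH is held. Arterial smooth muscle uses sodium-coupled bicarbonate uptake to remove acid and chloride-bicarbonate exchange to remove base.

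The deposited intensities are linear and come without detection calls. The mean with 2% trimmed at each end was 1501 on each of the 4 arrays, and medians ran from 591 to 648. The 3' signal exceeded the 5' signal of actin by 7.74-fold to 11.9-fold, with overlap between the groups. For Gapdh this excess did not overlap, at 8.79-fold and 10.8-fold with rosiglitazone against 11.1-fold on both vehicle arrays, and its part in the members' values was not tested. Values under 148 were raised to this floor before log2 was taken, and probe sets with a mean log2 intensity at or above that of 414 entered the limma fit, which left 7134. Levels of different probe sets are not compared, because each binds with its own efficiency.

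The sodium bicarbonate cotransporter gene Slc4a4 was the member with the clearest separation, with 2.45-fold the vehicle intensity after rosiglitazone (from mean log2 values). The widely expressed anion exchanger Slc4a2 and the muscle and fat isoform Car3 had nearly the same mean in both groups. One of 2 probe sets of the membrane-anchored enzyme Car4 lay higher with rosiglitazone on both arrays, and the anion exchanger Slc4a3 lay lower on both. Car2, the fast cytosolic enzyme, gave opposite readings on the rosiglitazone arrays.

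A total of 8 of the 9 probe sets, for 7 genes, passed the filter on dim values, and Car8 did not. With limma, 0 of these 8 passed an adjusted p of 0.05 (Benjamini-Hochberg over 7134 probe sets), where 0.364% of all tested probe sets did. At an unadjusted p under 0.05 in limma the count was 1, beside 10.9% of all tested. The groups did not overlap for 3 of the 8, beside 40.8% of all tested. Slc4a4 and the second probe set of Car4 were higher with rosiglitazone, beside 19% of all tested in that direction, and Slc4a3 was lower, beside 21.8%. Of the 8, 5 had a difference above 0 and 3 below, beside 48.1% of all tested above 0. Their median log2 difference was 0.06, against -0.02 over all 7134. As the members were picked on this contrast, nothing is read from these counts.

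**Figure D1:**
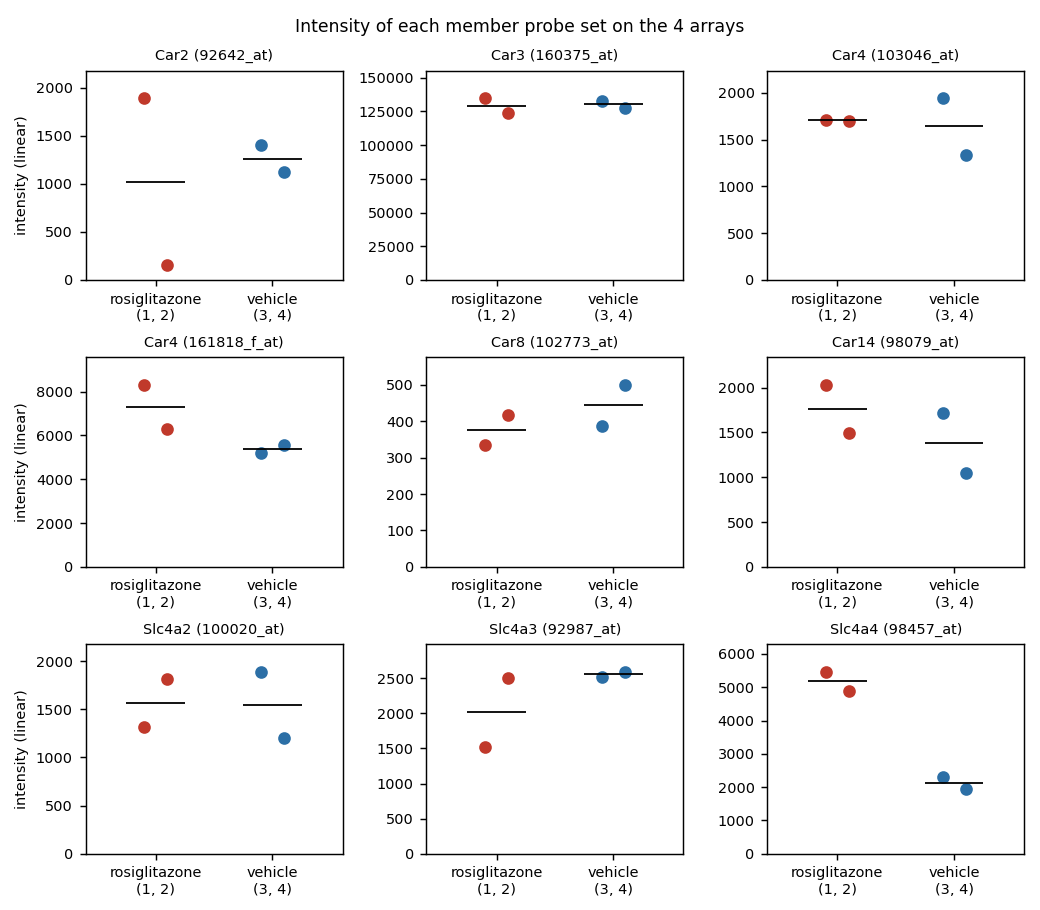
Intensity (linear scale, each panel from 0 on its own axis) of the 9 member probe sets on rosiglitazone arrays 1 and 2 and vehicle arrays 3 and 4; points are arrays and bars are group means. Slc4a4 is at 5467 and 4881 against 2302 and 1934, and Car2 is at 152 on 1 rosiglitazone array.

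Among the cytosolic enzymes, Car2, which is abundant in red cells and in acid-secreting cells, read 1895 and 152 with rosiglitazone against 1402 and 1126 with vehicle. The rosiglitazone arrays thus held both the highest and the lowest reading, and the lowest lay just above the floor. The log2 difference was -1.23 with a limma standard error of 0.97. It became 0.59 without rosiglitazone replicate 2 and fell to -3.05 without replicate 1, so the sign was set by the low reading of replicate 2. The gap between the rosiglitazone arrays was 3.64 on the log2 scale, and only 1 of the 7134 tested probe sets had a larger one. The median gap was 0.41. On the vehicle arrays Car2 had a gap of 0.32, close to the median of 0.35. Of the red cell markers, 6 of 11 listed genes were measured, 4 lower with rosiglitazone and none under the floor on all arrays, and their summed intensities were 506993 and 669625 with rosiglitazone against 564865 and 659162 with vehicle. Most of each sum was the globin gene Hba-a1. The 5 other markers summed to 39506 and 53202 with rosiglitazone against 71002 and 89982 with vehicle. Of the 5, 4 (Alas2, Bpgm, Hbb-b2 and Klf1) were lower on both rosiglitazone arrays, beside 21.8% of all tested probe sets. The part of red cells in the Car2 values was not tested.

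**Figure D2:**
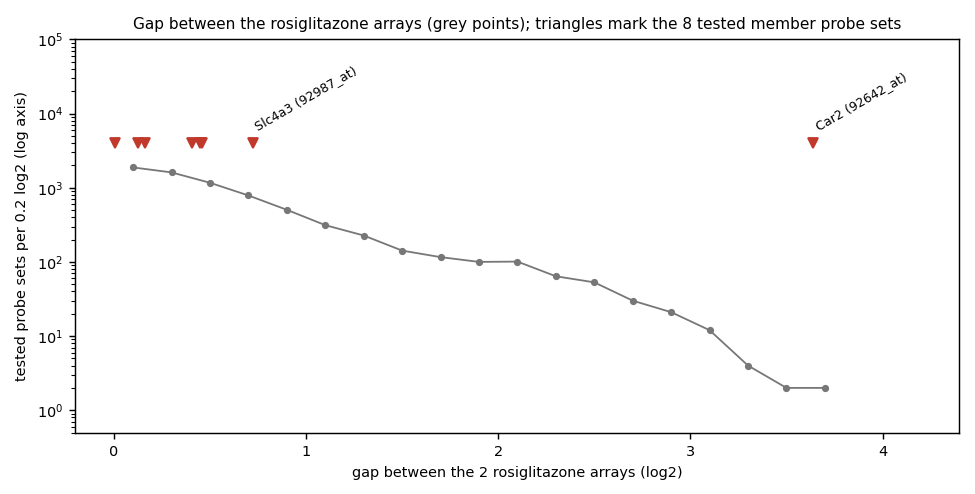
Number of tested probe sets (log axis) by the gap between the 2 rosiglitazone arrays on the log2 scale, in steps of 0.2; triangles mark the 8 tested member probe sets. Car2 stands at 3.64, far from the median of 0.41, and Slc4a3, at 0.72, is the next member.

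The Car3 enzyme, a slow isoform prominent in adipocytes and skeletal muscle, gave 134992 and 123723 with rosiglitazone against 132951 and 127472 with vehicle. The vehicle readings lay between the rosiglitazone readings. These values were below the highest intensity of each array, which was at least 467487. That maximum belonged to another probe set, Hba-a1, so whether the Car3 readings were saturated cannot be told from it. The log2 difference was -0.01 with a standard error of 0.21, and its sign turned when arrays were centred on their medians (0.07) and with 1 array left out (range -0.07 to 0.05). White adipocyte markers, 6 of 8 listed genes measured, 4 of them higher with rosiglitazone, had summed intensities of 209189 and 226131 with rosiglitazone against 147564 and 159764 with vehicle. That separation came from Adipoq and Lipe, since the 4 other markers summed to 13624 and 9479 against 9789 and 11911 and overlapped. Skeletal muscle markers, 12 of 12 measured, 6 higher and 5 lower, summed to 16389 and 16781 with rosiglitazone against 16400 and 15885 with vehicle, with Myh2 under the floor on every array. The part of these cells in the Car3 values was not tested.

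Car8, a carbonic anhydrase-related protein without catalytic activity, read 336 and 416 with rosiglitazone against 387 and 500 with vehicle. The groups overlapped and the mean lay just under the filter, so no fit was made for it. Its log2 difference was -0.23 with a standard error of 0.24 from these 4 values alone. It stayed below 0 under all 8 alternatives applied to the member values, from -0.42 to -0.05 with 1 array left out.

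Of the membrane-bound enzymes, Car4 is held at the cell surface by a lipid anchor and is found on capillary endothelium. Its probe set 103046_at read 1709 and 1703 with rosiglitazone against 1945 and 1336 with vehicle. Here the vehicle arrays enclosed the rosiglitazone arrays, and the log2 difference was 0.08 with a standard error of 0.34. Probe set 161818_f_at read 8311 and 6279 with rosiglitazone against 5191 and 5566 with vehicle. Both rosiglitazone arrays were higher on this one, by 0.43 on the log2 scale with a standard error of 0.24, or 1.34-fold. Leaving out 1 array moved the difference of 161818_f_at between 0.22 (without rosiglitazone replicate 1) and 0.63 (without replicate 2). The probe sets of Car4 thus did not show the same picture, and the _f_ in the name of the second marks a design whose probes may be shared by similar sequences. Endothelial markers, 9 of 10 measured, were higher with rosiglitazone for 2 and lower for 7, none under the floor on all arrays. Their sums overlapped, at 28045 and 35285 with rosiglitazone against 33127 and 41554 with vehicle, and their part in the Car4 values was not tested.

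Car14, an anhydrase with a membrane-spanning segment and an extracellular active site, had 2031 and 1488 with rosiglitazone against 1711 and 1043 with vehicle. The groups overlapped. The log2 difference was 0.38 with a standard error of 0.38, and it ran from 0.02 without vehicle replicate 4 to 0.74 without vehicle replicate 3.

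Among the chloride-bicarbonate exchangers, which export bicarbonate and so lower intracellular pH, Slc4a2 had 1321 and 1814 with rosiglitazone against 1892 and 1198 with vehicle. The vehicle arrays enclosed the rosiglitazone arrays. The difference was 0.04 on the log2 scale with a standard error of 0.38, and it ran from -0.29 to 0.37 with 1 array left out. Slc4a3, the exchanger best known from heart and brain, had 1521 and 2509 with rosiglitazone against 2526 and 2595 with vehicle. Both rosiglitazone readings were lower, but that of replicate 2 only just. The log2 difference was -0.39 with a standard error of 0.33, or 1.31-fold lower, and it was -0.03 without rosiglitazone replicate 1. The difference of Slc4a3 therefore rested on that array. Cardiac muscle markers, 9 of 9 measured, 5 higher and 4 lower and none under the floor on all arrays, summed to 38684 and 44543 with rosiglitazone against 40565 and 45036 with vehicle. The order of these sums followed Actc1, which was set apart after the values were seen. The 8 other markers summed to 29927 and 30085 with rosiglitazone against 26565 and 26260 with vehicle. Of these 8, 3 were higher and 1 was lower with no overlap between the groups, beside 19% and 21.8% of all tested probe sets. The part of cardiac tissue in the Slc4a3 values was not tested.

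Slc4a4 encodes the electrogenic sodium bicarbonate cotransporter, which brings bicarbonate into many cells and so removes acid. Its intensities were 5467 and 4881 with rosiglitazone against 2302 and 1934 with vehicle. The lower rosiglitazone array exceeded the higher vehicle array, and readings within each group lay close together. Mean log2 intensity was 12.33 ± 0.12 with rosiglitazone against 11.04 ± 0.18 (SD, n = 2 arrays each). The log2 difference was 1.29 with a standard error of 0.26. It ran from 1.17 without vehicle replicate 4 to 1.42 without vehicle replicate 3, and from 1.29 to 1.37 under the other floors and scalings. Of the 7134 tested probe sets, 153 (2.14%) had a difference at least as high. A change at least as large in either direction was seen for 5.83%. Slc4a4 was picked with this contrast in view, so these shares only describe its place and nothing is read from them.

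**Figure D3:**
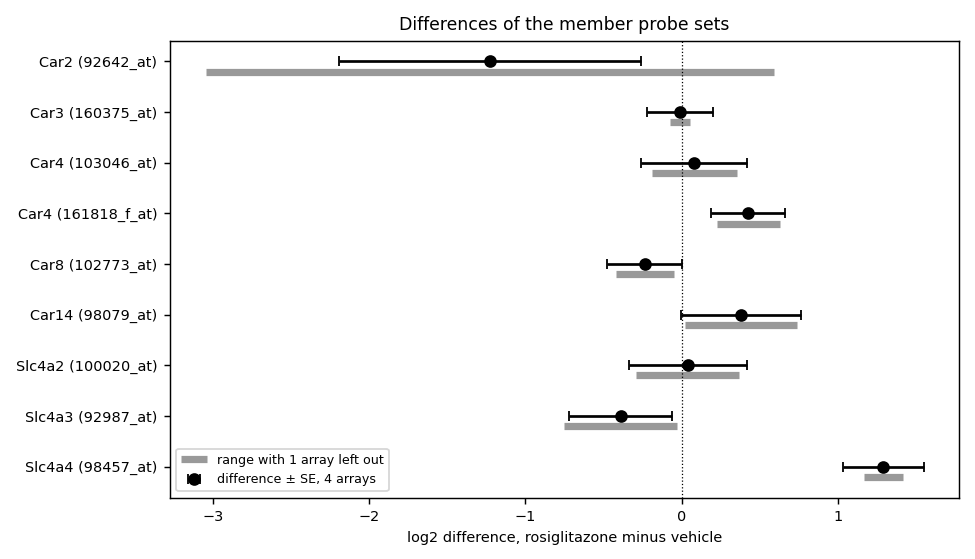
Log2 difference (rosiglitazone minus vehicle) of the 9 member probe sets; points with bars are the difference ± standard error over 4 arrays (limma, except Car8, from its own values), and grey bars are the range with 1 array left out. Slc4a4 stays between 1.17 and 1.42, while Car2 runs from -3.05 to 0.59.

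Summed markers of several cell types separated the same arrays as Slc4a4 did. Brown adipocyte markers, 8 of 9 measured, 7 higher and 1 lower with rosiglitazone and none under the floor on all arrays, summed to 396548 and 427885 with rosiglitazone against 286320 and 281377 with vehicle. The white adipocyte sum given above, carried by Adipoq and Lipe, was higher on both rosiglitazone arrays too, with no marker under the floor on all arrays. Smooth muscle markers, which define the labelled tissue, were measured for 6 of 8 genes, none under the floor on all arrays and all 6 lower with rosiglitazone. Their sums were 47993 and 51303 with rosiglitazone against 102449 and 124089 with vehicle. Macrophage markers, 8 of 8 measured and all lower, none under the floor on all arrays, summed to 16704 and 15058 with rosiglitazone against 50041 and 51345 with vehicle, with Cd14 the largest part of each vehicle sum. Neutrophil markers, 8 of 8 measured, 7 lower and none under the floor on all arrays, summed to 6748 and 7823 with rosiglitazone against 128241 and 195500 with vehicle. Nearly all of that gap came from S100a8 and S100a9, since the 6 other neutrophil genes summed to 5057 and 4741 against 6813 and 8049. Of these 6, 3 had overlapping groups and 3 were lower without overlap, beside 21.8% of all tested probe sets. The sums of nerve markers (7 of 10 measured) were 8007 and 6081 against 6876 and 7546 and overlapped. Those of airway and kidney epithelium (7 of 7 measured) were 4211 and 3595 against 4481 and 5550. The part of these cell types in the Slc4a4 difference was not tested.

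The 5 tested probe sets of named genes whose pattern over the 4 arrays was most like that of Slc4a4 were those of Csad, St3gal4, Lage3, Cldn5 and Faf1. Their root-mean-square gap from Slc4a4, after each was centred on its own mean log2 intensity, ran from 0.08 to 0.11, and their log2 differences between the groups from 1.08 for Faf1 to 1.45 for Cldn5. For Car2, the member with the lowest difference, the nearest were Agfg1, Zfhx3, Retn, Asah1 and Slc39a4, at gaps of 0.29 to 0.36. So few arrays give many near matches, and the likeness is a description only.

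The RefSeq table of promoter windows (GRCm38.p6), from 250 bases before to 50 after an annotated start, held 7 windows for 5 of the 8 members, Car4, Car14, Slc4a2, Slc4a3 and Slc4a4. Both windows of Slc4a4 are shown, because it is the member whose groups separated most and because its starts differ in base composition. The array reading does not tell which start was used. Capitals mark each match, on either strand, to the nuclear receptor half-site AGGTCA, a direct repeat of that half-site with 1 base of any kind between the copies (which contains the half-site), the GC box GGGCGG or the TATA-like TATAAA.
Slc4a4 upstream start, chr5:88887010-88887309, plus strand: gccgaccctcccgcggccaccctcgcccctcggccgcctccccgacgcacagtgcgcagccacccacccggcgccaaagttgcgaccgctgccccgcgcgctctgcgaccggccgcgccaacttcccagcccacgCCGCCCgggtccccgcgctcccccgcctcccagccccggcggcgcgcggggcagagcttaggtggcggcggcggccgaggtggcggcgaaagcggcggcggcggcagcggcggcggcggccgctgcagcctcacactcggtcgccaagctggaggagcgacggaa
Slc4a4 downstream start, chr5:89027716-89028015, plus strand: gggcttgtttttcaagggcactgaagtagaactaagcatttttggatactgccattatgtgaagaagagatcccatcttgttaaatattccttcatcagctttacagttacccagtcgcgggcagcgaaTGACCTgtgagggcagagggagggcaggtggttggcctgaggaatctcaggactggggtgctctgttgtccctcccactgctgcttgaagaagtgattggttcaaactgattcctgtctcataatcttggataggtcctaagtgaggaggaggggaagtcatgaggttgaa
The upstream window was 80.0% G and C and held 50 CpG dinucleotides, and the downstream one was 48.3% G and C and held 3. The median over all windows was 7 CpG. The upstream window had 1 GC box on the reverse strand, with its first base at -115 from the start. The downstream window had 1 half-site on the reverse strand, at -121. Of 32851 windows of the same length, 16.3% held the half-site, 35.7% the GC box, 13.6% TATAAA and 0.0396% the direct repeat. Among the other windows of members, the downstream one of Slc4a2 held 2 half-sites, that of Slc4a3 held 2 GC boxes and that of Car4 held 1 TATAAA. The TATAAA of Car4 lay 42 bases after the start, not before it. The log2 difference of Slc4a2 was 0.04, and a link between matches and differences was not tested. A match is a run of letters and not evidence of binding.

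Other genes of acid-base handling were taken from a list of 74, of which 30 had a probe set and 17 were tested, through 18 of 37 probe sets. None (0 of 18) passed an adjusted p of 0.05 in limma, beside 0.364% of all tested, and 0 had an unadjusted p under 0.05. Of the 18, 10 differences lay above 0 and 8 below, with a median of 0.03. The groups did not overlap for 4, beside 40.8% of all tested. The 4 other carbonic anhydrases on the array, Car1, Car5a, Car6 and Car12, were all too dim to be tested. Of the other bicarbonate and anion carriers with a probe set, 1 of 5 was tested, the red cell exchanger Slc4a1. Slc4a1ap, an adaptor protein listed with them, was too dim. Slc4a1 read 701 and 985 with rosiglitazone against 821 and 342 with vehicle, with overlapping groups.

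Among proton, lactate and sodium partners, 5 of 12 tested probe sets lay above 0 and 7 below. Slc16a8, a lactate carrier of the monocarboxylate family, read 813 and 238 with rosiglitazone against 825 and 1012 with vehicle (log2 difference -1.05, limma adjusted p = 0.627). Emb, the embigin chaperone of such carriers, read 567 and 684 against 811 and 1167 (-0.64, adjusted p = 0.697). Slc9a3r2, a scaffold for the sodium-proton exchanger, read 961 and 1405 against 872 and 682 (0.59, adjusted p = 0.688). Readings of these 3 did not overlap between the groups, and none of the 3 passed the test. For Slc16a8 the separation was narrow, 813 against 825, and its difference rested on the 238 of rosiglitazone replicate 2. A second probe set of Emb was under the floor on all arrays. Among enzymes that use bicarbonate, 4 of 5 tested probe sets lay above 0. Pcx, pyruvate carboxylase, read 1869 and 1301 against 1237 and 856 on probe set 162288_f_at (0.60, limma adjusted p = 0.633). This probe set is of the _f_ design described above for Car4. Another Pcx probe set, 93308_s_at, read 2959 and 879 against 1500 and 1856, with overlap and a difference of -0.05. Aqp1, a water channel that also passes carbon dioxide, was singled out after its values were seen. It read 1588 and 60 with rosiglitazone against 1676 and 200 with vehicle, so on this probe set it too was low on the array where Car2 was low, but also on 1 vehicle array. A second probe set of Aqp1, too dim to be tested, read 235 and 411 against 85 and 894, with the opposite order of arrays within both groups.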

How the data were processed

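RNA was measured on Affymetrix MG-U74Av2 arrays, 2 per group. The authors deposited 1 intensity per probe set and array, on a linear scale; their software and background correction are not given in the sources used here, and equal trimmed means show that arrays were globally scaled. No sequencing depth applies, and the number of arrays limits the precision. Of 12488 probe sets, 66 controls were left out. Gene names are those of the platform annotation, updated by gene identifier through a GRCm38.p6 table (10817 found, 0 changed); 10833 probe sets had 1 symbol, 396 several and 1193 none listed. The floor (148) and filter (414) are the 20th and 40th percentiles of all values. Groups were compared with limma 3.58.1 in R 4.3.3 (lmFit, eBayes with intensity trend, two-sided, Benjamini-Hochberg over 7134 probe sets, threshold 0.05). Members and lists were chosen with earlier results of these data known. Members are named whatever their value; of the other acid-base genes, any past the threshold and up to 8 changed at least 1.5-fold with no overlap, by smallest p, and a few more as is said. Patterns were compared by root-mean-square gap. The marker genes set apart from some sums (Hba-a1, Actc1, Adipoq, Lipe, S100a8 and S100a9) were chosen after the values were seen. On 20 simulated sets, each with 200 changed probe sets, a mean of 7502 probe sets was tested. The procedure called 29.7% of probe sets changed by 2 and 74.6% of those changed by 4 on the log2 scale. A mean of 2.85 unchanged probe sets was called per simulated set. The number truly changed in these data is not known, so the rates may not carry over. Promoter sequences are RefSeq's.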

Additional observations from a re-analysis of the deposited data

How the results depend on the processing

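Over all tested probe sets, 26 passed the threshold in limma. The count was 17 with arrays centred on their medians, 7 without the intensity trend, and 0 with no filter on dim probe sets or with a floor at the 40th percentile. At an unadjusted p under 0.05 these last settings gave 1202 and 933 of 12422. With 1 array left out it ran from 6 (without vehicle replicate 3, and likewise without vehicle replicate 4) to 71 (without rosiglitazone replicate 2), with 44 without rosiglitazone replicate 1; the lone array of a group was then assumed to vary like the others. Among members and other acid-base genes, 0 probe sets passed under any other floor, filter, scaling or trend setting. Over all probe sets, at most 24 passed under these settings. So few passed, and the members were picked on this contrast, that nothing is read from the 0. Under the other floors and scalings, 34 of 36 member differences lay within 1 SD of the value given. The other 2 were those of Car3 under median centring (0.07) and quantile normalization (-0.13), both small moves beside a narrow spread. The spread of Car2 was wide, so its larger move, from -1.23 to -0.50 with the floor at the 40th percentile, counted as within 1 SD. Leaving out 1 of 2 arrays cannot move a difference by more than 1 SD, so those values are given beside each member only. No paired analysis was possible because the labels give the groups different replicate numbers. With 2 arrays per group and no detection calls, background is unknown for single probe sets, which touches Car8 and the low Car2 reading most.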

Other observations

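Pyruvate carboxylase, which fixes bicarbonate onto pyruvate, is also covered by 4 control probe sets that were left out of the fit. The 3' set read 13006 and 6485 with rosiglitazone and 5207 and 4753 with vehicle, so both rosiglitazone arrays were higher. The 5' set read 350 and 1023 against 454 and 1104, with overlap. One of the middle sets read 187 and 347 against 328 and 434, also with overlap. The other read 963 and 216 against 206 and 173, so both rosiglitazone arrays were higher, replicate 2 only just. The sets without overlap were thus both higher with rosiglitazone, and the overlapping sets had log2 differences of -0.24 and -0.57.

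Among the probe sets too dim to be tested, Car12, a membrane-spanning anhydrase, read 254 and 436 with rosiglitazone and 152 and 76 with vehicle. Slc26a2, a sulphate and anion carrier, read 187 and 187 against 127 and 136. Both were picked after their values were seen.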
